A study of Mus musculus with 4 samples.

Results

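Bpifa1 (older name Plunc) and Sftpb encode secreted proteins of the airway lining and of the alveoli, and both were followed across 4 dual-colour arrays of mouse lung RNA. They are 2 of the 9802 genes named on the arrays. They were found by gene symbol, with 1 probe each of 20205 probes in all, and both probes had a value on all 4 arrays. Sftpc, the only other measured gene whose symbol starts with Sftp, also had 1 probe. The animals were of the inbred strain BALB/cJ, and their age is not given in the sources used here. Each array set RNA of lung from mice sensitized and then challenged with the model allergen ovalbumin against RNA pooled from the lungs of 6 controls that breathed the same air without sensitization. On 2 arrays both channels came from particle-free air, and on 2 arrays both came from air with UCP, which the labels do not spell out. The challenged lung carried the dye Cy5 on array 1 and Cy3 on array 2 of each air. The labels leave unsaid whether both arrays of 1 air stand for different mice, so p-values measure the spread from array to array, possibly only technical, and leave out the spread among controls.

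Bpifa1 is a small secreted protein of the BPI fold family that is made by the epithelium of the nose and large airways and by their glands, and that binds lipids and acts on bacteria and on the sodium channel of the airway surface. Sftpb encodes surfactant protein B, a short hydrophobic protein that alveolar type 2 cells cut out of a longer precursor and store with phospholipid in lamellar bodies. It is required for the surfactant film that keeps alveoli open. Club cells of the small airways also transcribe Sftpb.

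The stretches of DNA just before the start sites are shown for Bpifa1, for its family neighbour Bpifb9b, whose values lay closest to those of Bpifa1 within the family, and for Sftpb. They come from RefSeq on build GRCm38.p6, all on the + strand, 250 bases each, written 5′ to 3′. Capitals mark TATAA, the core of a TATA box, searched on the + strand, and CTCAAG, a core of sites for NKX2-1, a factor of lung epithelium known to act on Sftpb, searched on both strands (its reverse reads CTTGAG).
Bpifa1, chr2:154142630-154142879: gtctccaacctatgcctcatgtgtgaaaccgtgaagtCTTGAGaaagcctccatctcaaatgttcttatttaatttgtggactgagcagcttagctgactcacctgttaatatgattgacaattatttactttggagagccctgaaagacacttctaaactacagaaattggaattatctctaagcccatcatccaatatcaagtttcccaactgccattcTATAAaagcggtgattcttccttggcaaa
Bpifb9b, chr2:154306994-154307243: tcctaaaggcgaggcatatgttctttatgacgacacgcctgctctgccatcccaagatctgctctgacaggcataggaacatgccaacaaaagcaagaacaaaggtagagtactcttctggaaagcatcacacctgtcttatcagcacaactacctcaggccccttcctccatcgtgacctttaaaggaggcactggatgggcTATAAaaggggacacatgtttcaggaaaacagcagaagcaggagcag
Sftpb, chr6:72304360-72304609: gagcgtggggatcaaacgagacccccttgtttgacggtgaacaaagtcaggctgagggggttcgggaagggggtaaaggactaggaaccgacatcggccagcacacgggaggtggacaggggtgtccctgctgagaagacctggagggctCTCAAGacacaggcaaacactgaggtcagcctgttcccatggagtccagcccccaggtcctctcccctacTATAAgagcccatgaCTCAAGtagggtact

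TATAA began 29 bases before the start of Bpifa1, 47 before that of Bpifb9b and 30 before that of Sftpb, while 16.0% of 32851 windows of the same length held it. Sftpb held CTCAAG at 100 and at 15 bases before its start, and Bpifa1 held the reverse form at 213 bases. CTCAAG was found on either strand in 13.3% of the windows. TGTTTGC, a form of the site of FOXA factors, was matched on the reverse strand 88 bases before the start of Sftpb, next to the first CTCAAG, and in 4.30% of the windows. Searches for TGTTTAC, another FOXA form, and for the site of STAT6, both on both strands, had no match in these 3 windows, against 3.17% and 5.85% of all windows. The base composition differed, with 39.2% G and C for Bpifa1, 48.8% for Bpifb9b and 58.4% for Sftpb. These matches describe letters only.

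Values are given as deposited, as the log2 of challenged lung over control pool, so a negative value lies below the pool, and they show no level of a gene by itself. That the 4 arrays run the same way follows from the values, while the overall sign is likely only. It rests on the dyes and on 7 genes known from allergic lung, among them Chil3, Retnla and Ccl8. All 7 had a mean above 0, and 6 were above 0 on all 4 arrays. Genes were chosen with earlier results of these data known, so this check is not independent. The array medians lay from -0.07 to 0.02. The arrays correlated weakly over all probes, with Pearson r of 0.07 between the arrays of particle-free air and 0.14 between those of UCP air, and r from 0.06 to 0.14 between airs. These r include extreme values of 16.6, -16.0, 17.2 and -16.3, each shared by 20 to 58 probes of 1 array. Such values weigh heavily on Pearson r, and r without them was not computed. With controls that were not sensitized, sensitization and challenge cannot be told apart. A pool from whole lung cannot tell fewer cells of a type from less RNA per cell. Because ratios carry no level, the labelled tissue could not be checked against its markers beyond their having values.

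Sftpb lay below its control pool on all 4 arrays. Its log2 ratio was -0.87 and -0.53 on arrays 1 and 2 of particle-free air and -1.02 and -1.09 on arrays 1 and 2 of UCP air. The lowest 2 values were both from UCP air, and array 2 of particle-free air was nearest to the control. Such an order of 2 arrays against 2 has an exact two-sided permutation p of 0.333. The share of all probes with it was not counted. The mean over the 4 arrays was -0.88 ± 0.25 (SD, n = 4), a level 1.84-fold lower than the pool, with a 95% interval from 1.38-fold to 2.45-fold lower by limma. Its adjusted p over all 18160 tested probes was 0.164 (unadjusted p = 0.00362), so the call threshold of 0.05 was not passed. At that threshold limma called 1 of 18160 probes in the averaged effect (0.00551%), and 1379 probes (7.59%) were lower at an unadjusted p under 0.05, Sftpb among them, against 1172 (6.45%) higher.

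Bpifa1 lay below the pool on all 4 arrays as well, but at unequal distance in the 2 airs. In particle-free air its log2 ratio was -1.18 on array 1 and -1.46 on array 2. In UCP air it was -0.28 on array 1 and -0.10 on array 2. Both values of particle-free air lay below both of UCP air. The gap between the airs was wider than that between the arrays of either air (0.28 without particles and 0.18 with UCP). As for Sftpb, that order has an exact two-sided permutation p of 0.333, and its share of all probes was not counted. The mean over the 4 arrays was -0.76 ± 0.67 (SD, n = 4), or 1.69-fold lower with a 95% interval from 1.27-fold to 2.24-fold (limma adjusted p = 0.19, unadjusted p = 0.00623). That mean describes neither air. Of all tested probes 2477 (13.6%) were below 0 on all 4 arrays, as both genes were.

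**Figure D1:**
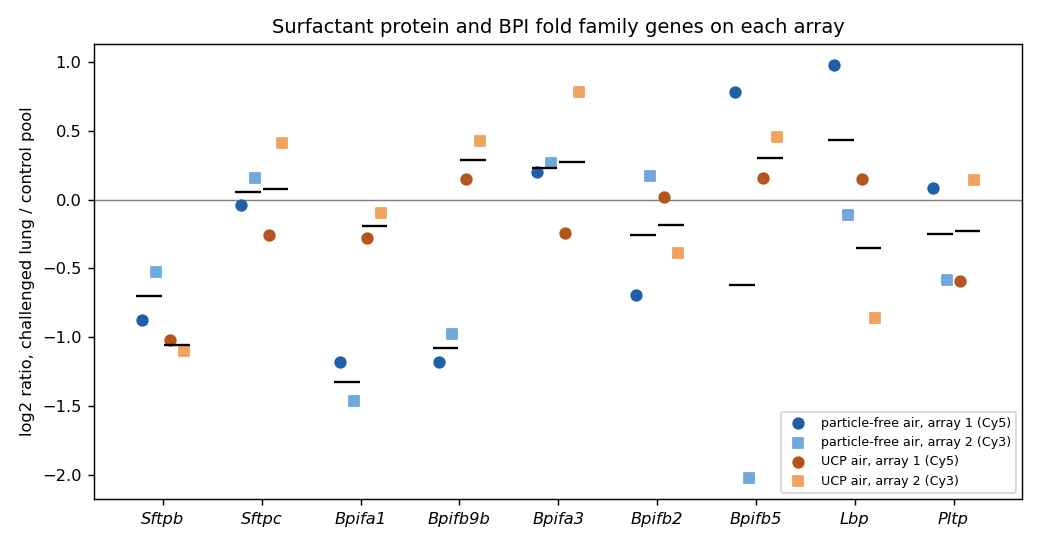
Each point is the log2 ratio of challenged lung over control pool (y axis) of 1 probe on 1 array, for the surfactant protein and BPI fold family genes (x axis). Blue marks particle-free air and orange UCP air, circles Cy5 and squares Cy3 for the challenged lung, and black bars the mean of the 2 arrays of an air. Sftpb is below 0 on all 4 arrays, Sftpc lies around 0, and Bpifa1 and Bpifb9b are below -0.9 only in particle-free air.

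In particle-free air taken alone, Bpifa1 had a log2 ratio of -1.32 ± 0.20 (SD, n = 2), a level 2.5-fold lower than the pool with a 95% interval from 1.67-fold to 3.74-fold (limma adjusted p = 0.313, unadjusted p = 0.00275). Sftpb had -0.70 ± 0.25 (SD, n = 2), or 1.63-fold lower (limma adjusted p = 0.442, unadjusted p = 0.0287). In this air limma called 0 of 18160 probes (0.0%), and at an unadjusted p under 0.05 there were 1069 lower (5.89%) and 826 higher (4.55%). Bpifa1 was at least 1.5-fold lower on both arrays of particle-free air, as were 839 of 18160 probes (4.62%). Sftpb was not, since array 2 stood short of that fold.

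In UCP air the order of the 2 genes turned. Sftpb had a log2 ratio of -1.06 ± 0.05 (SD, n = 2), 2.08-fold lower with a 95% interval from 1.39-fold to 3.12-fold (limma adjusted p = 0.35, unadjusted p = 0.00673). Bpifa1 had -0.19 ± 0.13 (SD, n = 2), 1.14-fold lower with an interval from 1.71-fold lower to 1.31-fold higher (limma adjusted p = 0.879), and its value was -0.10 without array 1 of UCP air. Limma called 0 of 18160 probes in UCP air (0.0%), and an unadjusted p under 0.05 was found for 863 lower (4.75%) and 672 higher probes (3.7%). Sftpb was at least 1.5-fold lower on both arrays, as were 826 of 18160 probes (4.55%). On all 4 arrays together 218 probes were at least 1.5-fold lower (1.2%). Neither gene was among these, Sftpb reaching that fold on 3 arrays and Bpifa1 on 2.

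Ranked among all tested probes of an array, Bpifa1 moved from the low tail to the body of the distribution between the airs. In particle-free air 4.23% and 4.0% of probes had a log2 ratio at or below its own, in UCP air 27.2% and 40.0%. For Sftpb the shares were 7.94% and 22.2% in particle-free air and 4.16% and 4.88% in UCP air. The values of Sftpb were thus in the low tail on 3 arrays and nearer to the middle on array 2 of particle-free air.

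**Figure D2:**
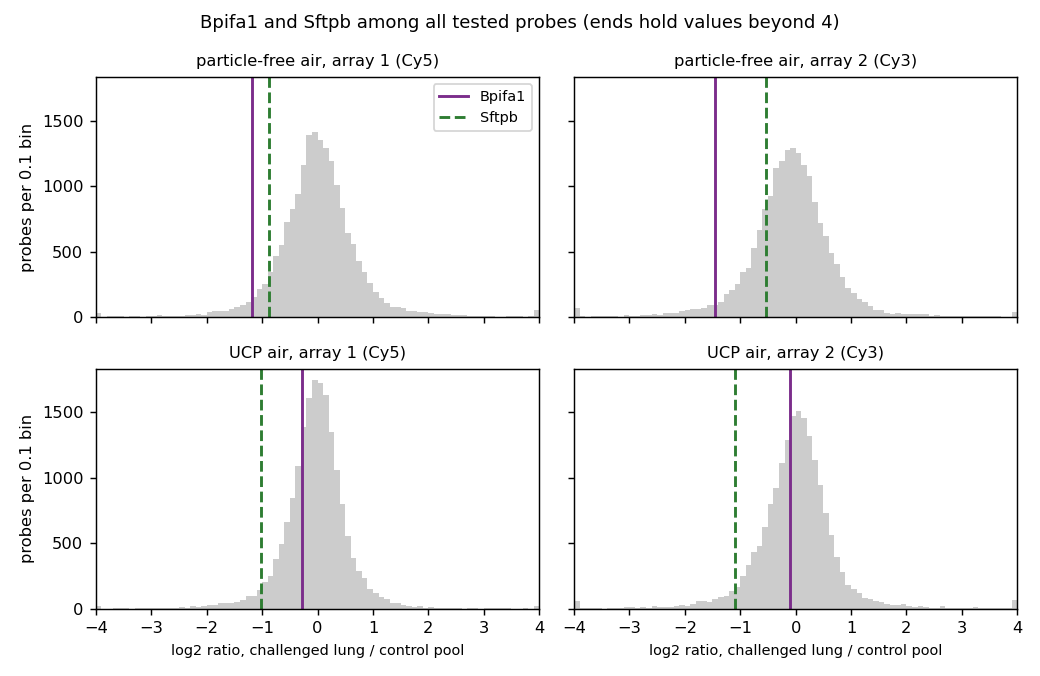
Histograms of the log2 ratio (x axis) of all 18160 tested probes on each array, in bins of 0.1 (y axis, probes per bin), with values beyond 4 gathered at the ends. The solid line marks Bpifa1 and the dashed line Sftpb. Bpifa1 stands in the low tail on both arrays of particle-free air, where 4.23% and 4.0% of probes lie at or below it, and within the body of both arrays of UCP air.

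The difference between the airs was tested for both genes. For Bpifa1 the log2 ratio in UCP air was 1.13 higher than in particle-free air, a 2.19-fold difference with a 95% interval from 1.24-fold to 3.87-fold, with unadjusted p = 0.0178 and adjusted p = 0.984 by limma. For Sftpb it was -0.36, with an interval from -1.18 to 0.47 on the log2 scale (limma adjusted p = 0.984, unadjusted p = 0.305), which allows a difference in either direction. Without array 2 of particle-free air it was -0.18, and with each array centred and scaled to a common spread -0.57. Limma called 0 of 18160 probes in this comparison (0.0%), while 355 were higher (1.95%) and 367 lower (2.02%) by an unadjusted p under 0.05. The exact permutation test of 2 arrays against 2 cannot go below p = 0.333, the two-sided value it gave for either gene. Each air had a control pool of its own, so a difference between the airs can come from the challenged lungs or from the pools, and these cannot be told apart.

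Lists of other tissues had unequal medians in the airs, though limma called 0 of their genes for the difference between airs, and their part in the difference of Bpifa1 was not tested. A liver list had medians of 2.71 and 2.28 without particles against 0.51 and 0.20 in UCP air (17 of 26 genes measured), led by albumin (Alb) at 4.61 ± 0.20 against 0.14 ± 0.95. A heart muscle list had medians of -0.11 and -0.05 against -1.62 and -1.54 (22 of 28 measured), with the atrial peptide Nppa at 0.11 ± 0.39 against -5.81 ± 0.14. A thymus and T cell list had -0.21 and -0.25 against -1.02 and -0.85 (12 of 25 measured). The smallest adjusted p for the difference between airs by limma was 0.379 in the liver list, 0.234 in the heart list and 0.974 in the thymus list. Macrophage and monocyte markers had array medians from 0.71 to 0.96 (20 of 30 measured), with 4 genes at a mean below 0 and 10 genes at least 1.5-fold higher on all 4 arrays, among them the protease Ctss at 2.27 ± 0.36 and the lectin Lgals3 at 1.82 ± 0.28 (SD, n = 4 each), against 1.16% of all measured genes.

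Markers of basal and squamous surface epithelium and of tracheal cartilage were looked at separately. Most basal and squamous epithelial genes were below 0 (11 of 14 by their mean), with medians of -0.76 and -1.18 in particle-free air and -1.22 and -0.95 in UCP air (14 of 25 measured). The other 3 had a mean above 0, the highest being Pkp1, a desmosome protein, at 0.64 ± 0.16 (SD, n = 4), which was at least 1.5-fold higher on both arrays of UCP air. 6 of the 14 were at least 1.5-fold lower on all 4 arrays, against 1.02% of all measured genes. The keratin Krt13 of stratified epithelium had a mean log2 ratio of -2.44 ± 0.40 (SD, n = 4), and the calmodulin-like Calml3 had -1.58 ± 0.27. Krt5, the keratin of basal cells, lay at -1.42 ± 0.29 in particle-free air and at -3.07 ± 0.31 in UCP air (SD, n = 2 each), the opposite order to Bpifa1. Tracheal cartilage genes had medians of 0.14 and -0.39 in particle-free air and -0.02 and -0.29 in UCP air (14 of 19 measured). Whether these tissues have a part in the values of Bpifa1 was not tested.

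Within the BPI fold family, a cluster of lipid-binding proteins on chromosome 2, 7 of 16 listed genes were measured. Bpifb9b, a secreted family member, lay at -1.18 and -0.97 in particle-free air and at 0.15 and 0.43 in UCP air. It was low in particle-free air only, as Bpifa1 was at its lowest there, and its 2 airs lay on opposite sides of 0. The difference between airs was 1.37 on the log2 scale (limma adjusted p = 0.984, unadjusted p = 0.00929). Bpifb9b shares an older name with its neighbour Bpifb9a, and cross-hybridisation between the 2 was not tested. Measured genes closer to Bpifa1 on the chromosome had other values. Bpifa3, the neighbour on one side, lay at 0.20 and 0.26 in particle-free air and at -0.24 and 0.78 in UCP air. Bpifb5, between Bpifa1 and Bpifb9b, gave 0.78 and -2.02 in particle-free air, which disagree in sign, and 0.15 and 0.45 in UCP air.

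The other 3 family members lay on both sides of 0. Bpifb2 had a mean log2 ratio of -0.22 ± 0.39, the phospholipid transfer protein Pltp had -0.24 ± 0.40, and Lbp, which hands bacterial lipopolysaccharide to its receptor, had 0.04 ± 0.76 (SD, n = 4 each). The values of Lbp ran from -0.86 to 0.98, so its mean near 0 hides arrays of opposite sign. Their adjusted p, like those of Bpifa1, Bpifa3, Bpifb5 and Bpifb9b, did not pass in any of the 4 comparisons by limma. The median over the 7 family genes was -0.22, beside -0.01 over all 9153 measured genes. At least 1.5-fold lower on both arrays of particle-free air were 2 of the 7, Bpifb9b and Bpifa1 itself, and in UCP air 0 were. Bpifa1 was chosen with earlier results known, so its place in this count says nothing about the family. Of all 9153 measured genes that fold was reached by 328 (3.58%) without particles and by 350 (3.82%) with UCP.

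Defence proteins of airway lining and glands, the company in which Bpifa1 is secreted, went in several directions (13 of 32 measured). Dcpp1, a secretory protein of mucous and serous glands, lay at -3.73 and -2.79 in particle-free air and at -0.16 and -0.44 in UCP air. It was the lowest of the list and had the same order of the airs as Bpifa1 and Bpifb9b. The difference between airs was 2.96 on the log2 scale (limma adjusted p = 0.509 over all genes). Dcpp1 was named for its low values, and the share of all genes with this order was not counted, so the likeness is no test. Dcpp1 has near-identical neighbours, and what its probe picks up was not tested. Saa3, an acute phase protein, lay at 3.37 ± 0.60 (SD, n = 4) and passed when the probes of each gene were averaged and adjusted over 9153 genes (limma adjusted p = 0.0388), where 9 genes (0.0983%) were called. The iron-binding Lcn2 had 1.64 ± 0.49 and the antimicrobial peptide Camp 1.19 ± 0.47 (SD, n = 4 each), both genes of neutrophils too. The list's median was -0.08, with 1 gene called higher and 0 lower.

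Goblet cell and mucus genes, of which Bpifa1 is 1 of the 10 measured of 26, were mostly on the other side of 0 from it. Their median was 0.46, and Bpifa1 and Creb3l4 were the 2 with a mean below 0. On all 4 arrays 2 were at least 1.5-fold higher, against 1.16% of all measured genes, namely Slc26a4, an anion exchanger, at 4.24 ± 0.51 and Tff2, a mucosal peptide, at 1.36 ± 0.14 (SD, n = 4 each). Both also served in the check of the overall sign. The goblet cell factors Spdef and Foxa3 had 0.46 ± 0.25 and 0.46 ± 0.45. Slc26a4 was the 1 gene of the list called higher (limma adjusted p = 0.0491 over 9153 genes), and 0 were called lower. Bpifa1 was the lowest of the list, and the only one at least 1.5-fold lower on both arrays of particle-free air, against 3.58% of all measured genes. Bpifa1 was chosen with earlier results known, so its place in this list is no independent result.

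Sftpc, which encodes the surfactant protein C that type 2 cells store beside SP-B, was near its pool. It lay at -0.04 and 0.15 in particle-free air and at -0.26 and 0.41 in UCP air. The mean was 0.07 ± 0.28 (SD, n = 4), with a limma interval from -0.43 to 0.56. Within each array Sftpb was lower than Sftpc, with a difference of -0.83 and -0.68 on arrays 1 and 2 of particle-free air and of -0.76 and -1.5 on arrays 1 and 2 of UCP air. The mean difference of the 2 log2 ratios was -0.94 ± 0.38 (SD, n = 4), with the same sign on 4 of 4 arrays. The exact two-sided sign-flip permutation test gave p = 0.125, the smallest that 4 arrays allow, and 0.25 adjusted over the 2 differences tested. Any 4 differences of the same sign give that p, so the test cannot decide whether the 2 transcripts differ. Sftpb was also chosen with earlier results known, so setting it against a gene near 0 is no independent test.

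Genes listed for SP-B processing and lamellar bodies also stood nearer to 0 than Sftpb (10 of 21 measured, Sftpb included). The list is wider than its name and also holds transcription factors and Aqp5, a water channel. Napsa, a protease that cuts the SP-B precursor, had a mean log2 ratio of -0.18 ± 0.17. Abca3, the lipid pump of the lamellar body, lay at -0.33 and -0.28 in particle-free air and at 0.28 and 0.59 in UCP air, on opposite sides of 0. Lpcat1, which makes the main surfactant phospholipid, had -0.23 ± 0.17. The transcription factors Cebpa and Etv5, both active in type 2 cells, had -0.15 ± 0.17 and -0.26 ± 0.26 (SD, n = 4 each). Sftpb was the lowest of the 10, and the list's median was -0.16. In the averaged effect 0 of the 10 passed by limma over all genes (smallest adjusted p = 0.128, that of Sftpb itself). Sftpb alone was at least 1.5-fold lower on both arrays of UCP air, against 3.82% of all measured genes. Because Sftpb was chosen with earlier results known, its place in this list is no independent result.

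The wider list of type 2 markers had a median of 0.06 (11 of 25 measured) and was mixed. It holds Chil1 at 1.81 ± 0.32, Lcn2 at 1.64 ± 0.49 and Cd74 at 0.91 ± 0.31 (SD, n = 4 each), genes that macrophages, neutrophils or antigen-presenting cells transcribe as well. On the low side S100g, a calcium-binding protein, gave -0.66 on both arrays of particle-free air and 0.56 and -0.71 in UCP air. In this list 0 genes were called by limma in either direction in the averaged effect. Sftpb was the lowest member, a place that its choice with earlier results known makes no independent result, and its array values overlapped with those of S100g.

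Enzymes of surfactant lipid synthesis and turnover had a median of -0.55, or -0.26 for particle-free and -0.90 for UCP air (16 of 24 measured), the same order of the airs as Sftpb. Agpat2, which makes phosphatidic acid, had -1.35 ± 0.52 and -1.81 ± 0.27, and the phosphatase Lpin2 had -0.80 ± 0.33 and -1.09 ± 0.07 (SD, n = 2 each). Of the 16 genes 2 were at least 1.5-fold lower on both arrays of particle-free air, against 3.58% of all measured genes, and 8 on both arrays of UCP air, against 3.82%. Limma called 0 of them. Many of these enzymes are fat genes too, and the adipose list had medians of -0.72 and -0.81 in particle-free air and -1.14 and -1.11 in UCP air (14 of 23 measured). The part of fat tissue in these values was not tested. Plin2, a lipid droplet coat protein, was the highest of the list at 0.61 ± 0.09 (SD, n = 4).

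**Figure D3:**
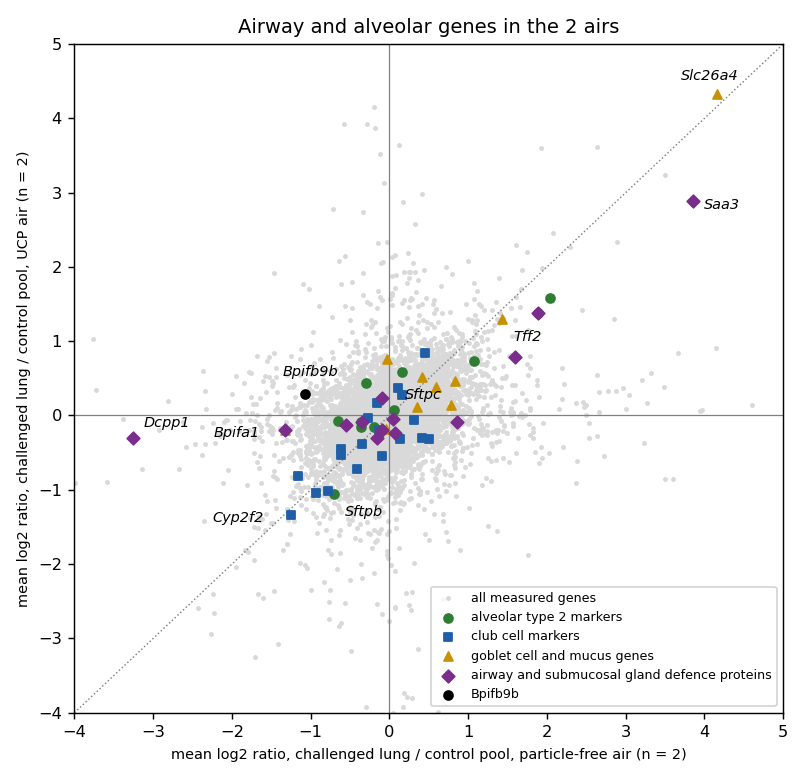
Each point is a gene, with its mean log2 ratio over the 2 arrays of particle-free air on the x axis and over the 2 arrays of UCP air on the y axis. Grey points are all 9153 measured genes (47 lie outside the plotted range), colours mark 4 gene lists, and the dotted line marks equal ratios. Bpifa1, Bpifb9b and Dcpp1 lie left of 0 and above the line, while Sftpb lies below 0 in both airs. The share of all genes left of 0 and above the line was not counted.

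Club cells, the other source of Sftpb, were covered by 19 of 30 listed genes. Cyp2f2, the club cell cytochrome, lay at -0.87 and -1.61 in particle-free air and at -1.64 and -1.04 in UCP air. Cyp4b1, another cytochrome of these cells, had a mean log2 ratio of -0.99 ± 0.23, the glutathione transferase Gstm1 had -0.99 ± 0.23, and the selenium-binding Selenbp1 had -0.90 ± 0.23 (SD, n = 4 each). The means of Cyp4b1, Gstm1 and Selenbp1 were about as low as that of Sftpb. Cyp2f2 was lower than Sftpb on array 2 of particle-free air and array 1 of UCP air, and near it on the other arrays. As with Sftpb, the values of these genes were below 0 on all 4 arrays. They were named for the smallest p or as extremes of the list, so they do not stand for it. The list's median was only -0.16, with 12 genes below 0, and Aldh1a7, an aldehyde dehydrogenase, was at 0.64 ± 0.36. Of the 19 genes 3 were at least 1.5-fold lower on all 4 arrays, against 1.02% of all measured genes, and 0 were called by limma (smallest adjusted p = 0.109 in the averaged effect).

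The remaining epithelial lists had members on both sides of 0. Ciliated cell genes had a median of -0.11 (26 of 39 measured), general epithelial genes of 0.20 (14 of 22) and alveolar type 1 genes of -0.23 (11 of 21). Limma called 0 genes of these lists in the averaged effect. Of the 11 type 1 genes 2, Vegfa and Gprc5a, were at least 1.5-fold lower on all 4 arrays, against 1.02% of all measured genes. The 2 probes of Gprc5a differed by 2.04 in their mean log2 ratio, so its place in this count rests on an average of unlike probes. On the other side 1 gene, Pdpn, was at least 1.5-fold higher on all 4 arrays, against 1.16%. Vegfa, the vascular growth factor, had -1.45 ± 0.37, Ager, the receptor that marks these cells, had 0.18 ± 0.31, and Pdpn, a surface glycoprotein, had 0.87 ± 0.32 (SD, n = 4 each).

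**Figure D4:**
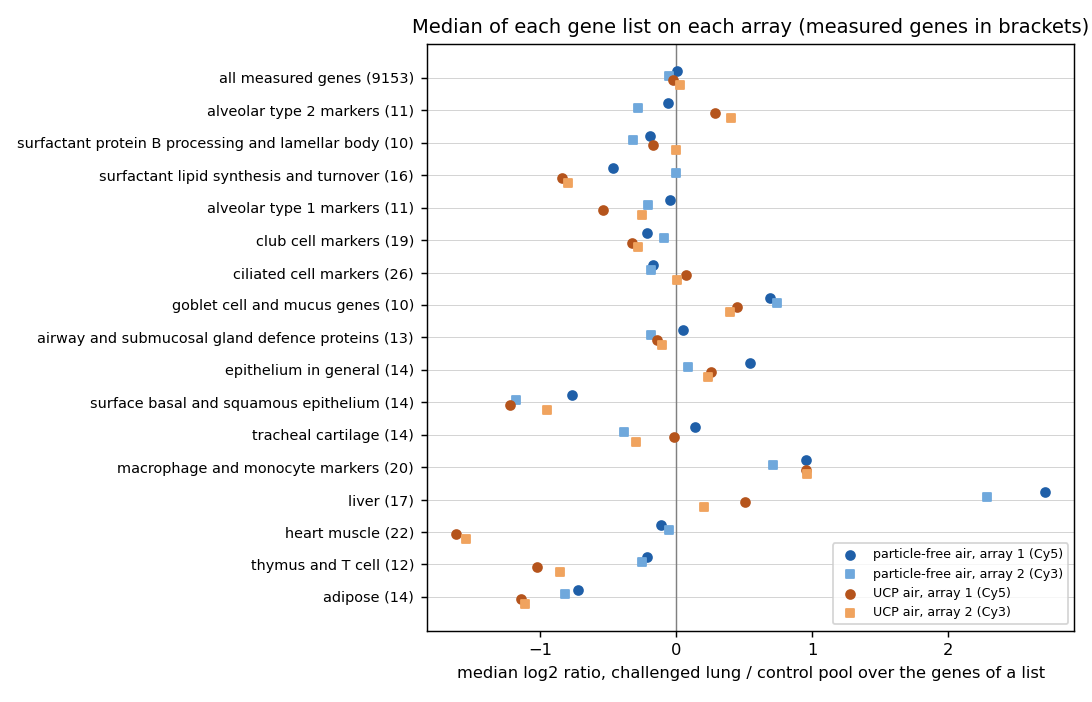
Median log2 ratio (x axis) over the measured genes of each list (y axis, number of genes in brackets) on each of the 4 arrays, coloured as by air and dye. The lists of type 2, club, goblet and ciliated cells and of surfactant lipid enzymes have medians between -0.84 and 0.74, macrophage markers have medians between 0.71 and 0.96, and the medians of the liver and heart muscle lists are unequal in the airs.

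Compared with each other within an array, the 2 genes changed places between the airs. Bpifa1 minus Sftpb was -0.31 and -0.94 on arrays 1 and 2 of particle-free air and 0.74 and 0.99 on arrays 1 and 2 of UCP air. Bpifa1 was therefore the lower of the 2 on both arrays of particle-free air and the higher on both arrays of UCP air. Over all 4 arrays the mean difference was 0.12 ± 0.90 (SD, n = 4; exact two-sided sign-flip permutation p = 0.875, also 0.875 adjusted over the 2 differences). It has no stable sign, with -0.08 without array 1 and -0.17 without array 2 of UCP air. Between the airs the difference was 1.49 on the log2 scale (exact two-sided permutation p = 0.333, the smallest possible).

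The genes whose 4 ratios were most like those of each gene were sought among the 9152 others, by the root mean square difference of the log2 ratios over the 4 arrays. Nearest to Bpifa1 were Slc9a2, a sodium-proton exchanger (root mean square difference 0.13), the palmitoyltransferase Zdhhc19 (0.19), Kcnip1, a potassium channel partner (0.19), the endothelial receptor Robo4 (0.22) and 2900026A02Rik (0.22). Slc9a2 lay at -1.03 and -1.32 in particle-free air and at -0.42 and -0.08 in UCP air. Bpifb9b was at rank 67 with 0.42, mainly because its values in UCP air were above 0.

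Nearest to Sftpb were Abce1, a factor of ribosome recycling (0.08), Rnf214 (0.14), Mospd2, a membrane contact protein (0.15), Ppme1, which removes a methyl group from protein phosphatase 2A (0.15), and Gprc5a (0.16), a receptor on the list of type 1 genes whose 2 probes differed by 2.04 in their mean log2 ratio. Abce1 lay at -0.85 and -0.46 in particle-free air and at -0.91 and -1.01 in UCP air. Sftpc stood at rank 4612 with 1.0. With 4 arrays many genes come this close, and the order carries no test.

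**Figure D5:**
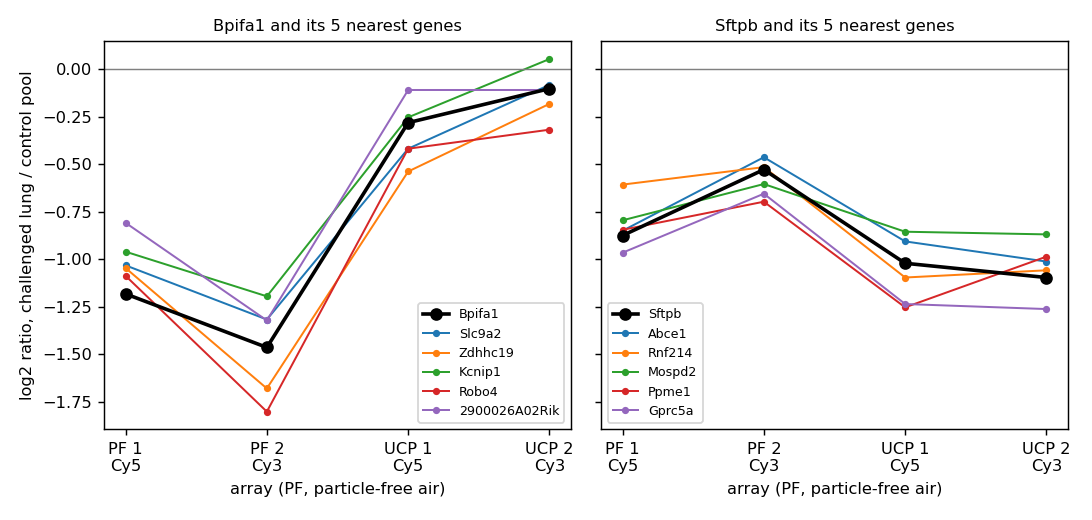
Log2 ratio of challenged lung over control pool (y axis) on each array (x axis) for Bpifa1 and its 5 nearest genes (left) and for Sftpb and its 5 nearest genes (right). Lines join the 4 arrays of a gene and stand for no order in time; Bpifa1 and its nearest genes lie at -0.81 or below in particle-free air and at -0.54 or above in UCP air.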

How the data were processed

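Lung RNA (20 µg per labelling, indirect Cy3 or Cy5, per the labels' protocols) was measured on 4 dual-colour arrays. The values deposited by the authors are log2 ratios of the channels. For scanner, normalization and filters the entry is: not given in the sources used here. Without brightness values, dim probes could not be set aside. On each array the extreme values lay on a plateau equal to log2 of a ratio of 100000 plus 1 constant, positive where challenged lung was in Cy5 and negative where it was in Cy3, so the 4 columns needed no change of sign. Values were used as deposited.

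Of 20205 probes, 13852 had 1 gene symbol, and 18160 with 4 values (9153 genes) were tested with limma 3.58.1 in R 4.3.3 (a coefficient for each air, eBayes, two-sided, Benjamini-Hochberg over all probes). Gene lists used means over a gene's probes, with p adjusted over all genes. On simulated data of 18160 probes the fit for the averaged effect recovered 0% of probes changed by 1 on the log2 scale, 50% by 2 and 90% by 4, with 5 false calls. Named genes were both genes, symbols starting with Sftp or Bpif, Bpi, Lbp, Pltp, 5 nearest genes each, and list members (any of lists up to 12 measured genes, otherwise the 4 with the smallest p and the extremes). Genes and lists were chosen with earlier results of these data known, and the promoter motifs after the sequences were seen. Alternatives were another centring, scaling, probe filter, level, spread estimate, a replicate block and leaving out arrays.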

Additional observations from a re-analysis of the deposited data

Results flagged for a closer look

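Bpifb9b lay below 0 on both arrays of particle-free air and above 0 on both arrays of UCP air, so the airs pointed in opposite directions. Its mean log2 ratios were -1.08 and 0.29, a difference of 1.37 (limma with the probes of a gene averaged, adjusted p = 0.979, unadjusted p = 0.00641), which did not pass over all genes.

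Abca3 likewise had means of -0.30 (particle-free) and 0.44 (UCP), a difference of 0.74 (limma adjusted p = 0.979, unadjusted p = 0.0495).

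Bpifa1 minus Sftpb within an array had means of -0.62 (particle-free) and 0.87 (UCP), a difference of 1.49 (exact permutation p = 0.333, the smallest that 2 against 2 arrays allow).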

How the results depend on the processing

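The 90 values of Bpifa1 and Sftpb under the alternatives (4 comparisons) kept their direction, and 0 passed an adjusted p of 0.05. The kept direction is no test, since most alternatives could not change it. The probe filter, gene averaging, replicate block and spread estimates left each log2 ratio as it was. With both genes below 0 on all 4 arrays, leaving out 1 array could not reverse the averaged ratio or that of an air. The averaged log2 ratio of Bpifa1 ran from -0.83 to -0.69 (adjusted p 0.148 to 0.689) and that of Sftpb from -0.97 to -0.79 (0.128 to 0.662). The difference between airs ran from 0.97 to 1.27 for Bpifa1 and from -0.57 to -0.18 for Sftpb. With both arrays of an air averaged into 1 value, an alternative chosen after seeing the data, Bpifa1 had an adjusted p of 0.483 and Sftpb of 0.416.

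Counts of called probes moved more. In the averaged effect there were 1 with the fit as reported, 2 with centring and scaling, 9 with probes of a gene averaged, and 0 with the replicate block, without empirical Bayes or with both arrays averaged. Leaving out 1 array gave 0 to 34, with 22 without array 1 and 9 without array 2 of particle-free air, 34 without array 1 and 0 without array 2 of UCP air. Such a fit leaves an air with a lone array, assumed to vary like the other air. In particle-free air the count went from 0 to 10 with probes missing on some arrays, to 1 with genes averaged and to 0 to 24 without 1 array (24 without array 1 and 8 without array 2 of that air). In UCP air it was 2 with genes averaged and 0 to 36 without 1 array (36 without array 1 and 4 without array 2 of that air). For the difference between airs it was 0 to 32 (32 without array 1 of UCP air, 19 and 8 without array 1 and array 2 of particle-free air). Probes at least 1.5-fold lower on all arrays numbered 218, 72 at 2-fold and, with 1 array fewer to pass, 314 to 398. Bpifa1 minus Sftpb ran from -0.17 to 0.48 without 1 array, with -0.08 and -0.17 without array 1 and array 2 of UCP air. The replicate number is also the dye orientation. Deviations of same-numbered arrays from the mean of their air correlated at 0.05 over all tested probes. The extreme plateau values were included, so this r says little about the other probes. With the replicate block in limma the mean of Bpifa1 stayed at -0.76 (adjusted p = 0.346) and that of Sftpb at -0.88 (adjusted p = 0.335). The number of arrays limits the precision, and signal over background is unknown.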
